A study of Mus musculus with 62 samples.

Results

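RNA sequencing of *Fam13a* knockout (KO) and wild-type (WT) mice was examined for 10 genes of insulin signalling: *Insr*, *Irs1*, *Irs2*, *Irs3*, *Pik3r1*, *Akt2*, *Foxo1*, *Tbc1d4*, *Grb14* and *Pde3b*. They were taken by name for their place in the pathway, but with earlier results of these data known. All 10 were found among the 48795 genes of the count table. The KO mice lack *Fam13a* in the whole body. They descend from ES cells in which loxP sites surround exon 5 of the gene, and KO and WT mice alike have the C57BL6 background. Visceral (VAT) and subcutaneous (SAT) white fat and liver came from male WT and KO mice on chow or on a high-fat diet (HFD), and both fat depots from females of either genotype, all on HFD. Each of the 16 groups held 4 libraries, except WT females with 3 in each depot. Replicate numbers below follow the order of the samples within a group and are not the study's own. The same number in different tissues does not mean the same mouse. HFD began in young adults and lasted for several months, VAT was gonadal and SAT inguinal fat, and an overnight fast is described for the harvest of tissue for histology, not for that of RNA. The study speaks of tissues of mice in each group, but the labels tie no library to an animal, so p-values measure the spread between these samples, and tissues of the same mouse cannot be linked. A whole-body KO cannot tell an effect that arises in the tissue from one that reaches it through the blood.

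Insulin binds its receptor, a tyrosine kinase encoded by *Insr*, which then phosphorylates the adaptors encoded by *Irs1* and *Irs2* and, in mouse fat, *Irs3*. The adaptors recruit phosphoinositide 3-kinase, whose main regulatory subunit is the product of *Pik3r1*, and the lipid it makes activates the kinase Akt2. In fat, Akt2 releases glucose transporter vesicles by acting on Tbc1d4 and lowers lipolysis through Pde3b, which breaks down cyclic AMP. In liver, Akt2 keeps the transcription factor Foxo1 out of the nucleus, which lowers glucose output, and Grb14 is an adaptor that binds the activated receptor and inhibits it.

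Gene counts summed to between 4959783 and 28723319 in a library. Reads of ribosomal RNA took from 0.0127% to 75.4% of a library, and over 30% in 5 libraries. Libraries of chow mice ran on other sequencing lanes than those of HFD mice, so diet and lane cannot be told apart in any HFD comparison below. Age may go with diet as well. The paper's chow fat for histology came from mice younger than those killed after HFD, and it gives no age for the chow mice sequenced. *Fam13a*, counted over the whole gene and not over the targeted exon, and given as CPM (its count scaled to the library's total), was lower in KO than in WT SAT of chow males (103 to 226 against 280 to 362 CPM). It was also lower without overlap in SAT (32.6 to 56.2 against 69.2 to 92.2 CPM) and liver (10.8 to 16.9 against 19.3 to 24.8 CPM) of HFD males, and its ranges overlapped in VAT and in liver on chow. In VAT of chow males the library labelled KO replicate 4 held 344 CPM, above WT replicate 2 at 303 CPM and the other KO libraries at 47.8 to 154 CPM. In SAT of females the library labelled KO replicate 3 held 146 CPM against 105 to 147 CPM in WT. The 7 adipocyte markers summed to 6166 CPM or more in every fat library and to at most 52.1 CPM in liver, where the 6 hepatocyte markers summed to 36875 CPM or more. In male fat the sum of the hepatocyte markers was higher on chow than on HFD, but the markers did not rise as a set. On chow, up to 2 of the 6 had 0 counts in a VAT library and up to 3 in a SAT library. On HFD, all 6 had counts in every VAT library and at most 1 had 0 in a SAT library. In VAT of WT the 6 markers summed to 1719 to 4313 CPM on chow and 25.3 to 394 CPM on HFD. In VAT of KO the sums were 583 to 3344 and 66.5 to 196 CPM. In SAT they were 1053 to 1847 and 235 to 475 CPM in WT, and 730 to 1582 and 186 to 255 CPM in KO. Epithelium markers summed to 136 to 334 CPM in female SAT and at most 13.2 CPM in male SAT. Markers of epididymis and skeletal muscle stood out in a few fat libraries. Epididymis markers summed to 13597 CPM in VAT of chow KO replicate 1 and to 3773 CPM in VAT of chow WT replicate 2. Skeletal muscle markers summed to 21022 CPM in SAT of chow KO replicate 1, to 4941 CPM in SAT of female WT replicate 2 and to 2170 CPM in SAT of HFD WT replicate 4.

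Among the members, *Irs1* and *Irs2* had the most similar changes across the groups, and RefSeq promoter windows (GRCm38.p6, 250 bases before the start of transcription and 50 from it on) are shown for these and for *Pik3r1*, which moved in the opposite direction to both in liver. Windows were found for 8 of the 10 members, and none for *Insr* and *Pde3b*. Each window is printed in the direction of transcription, here the minus strand, and capitals mark every match on either strand to TGTTTTG (the core of insulin response elements), TGTTTAC (a FoxO motif), CACGTG (an E-box), GGGCGG (a GC box) or TGACGTCA (a cyclic AMP response element).

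Irs1, chr1:82291390-82291689: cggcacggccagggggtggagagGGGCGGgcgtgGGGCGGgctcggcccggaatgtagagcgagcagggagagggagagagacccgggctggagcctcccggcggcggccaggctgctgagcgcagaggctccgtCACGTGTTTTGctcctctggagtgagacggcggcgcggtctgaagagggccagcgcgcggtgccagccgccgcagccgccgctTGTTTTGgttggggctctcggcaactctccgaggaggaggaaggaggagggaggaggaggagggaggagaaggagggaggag

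Irs2, chr8:11008880-11009179: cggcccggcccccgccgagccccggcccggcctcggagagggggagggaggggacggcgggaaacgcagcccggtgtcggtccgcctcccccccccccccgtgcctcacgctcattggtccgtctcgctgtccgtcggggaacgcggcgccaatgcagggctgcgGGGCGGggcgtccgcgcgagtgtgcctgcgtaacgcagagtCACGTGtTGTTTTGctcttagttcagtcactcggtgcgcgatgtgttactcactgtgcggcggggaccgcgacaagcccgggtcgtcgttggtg

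Pik3r1, upstream of 2 windows, chr13:101768168-101768467: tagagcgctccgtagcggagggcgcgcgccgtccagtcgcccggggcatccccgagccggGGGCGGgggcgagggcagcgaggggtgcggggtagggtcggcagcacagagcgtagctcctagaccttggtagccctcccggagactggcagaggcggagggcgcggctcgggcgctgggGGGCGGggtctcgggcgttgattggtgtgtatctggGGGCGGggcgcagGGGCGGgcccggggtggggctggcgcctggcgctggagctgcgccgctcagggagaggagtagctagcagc

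Both adaptor windows held an E-box with TGTTTTG next to it. In *Irs1* the motifs shared 2 letters and began 115 and 111 bases before the start, and a further TGTTTTG began 32 bases before it. In *Irs2* they were separated by 1 base and began 44 and 37 bases before the start. TGTTTTG was in 6.28% of all 32851 windows, CACGTG in 7.15%, and both in 0.408%. No other member window held either motif, and no member window held TGTTTAC (3.65% of all windows) or TGACGTCA (1.79%). GGGCGG was in 35.7% of all windows, 4 times in the *Pik3r1* window shown and at least once in windows of *Irs1*, *Irs2*, *Irs3*, *Akt2*, *Foxo1*, *Tbc1d4* and *Grb14*. A match of letters is no evidence that a factor binds there.

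Levels were first compared between genes in WT males on chow, in TPM, the usual transcript scale, which corrects for gene length. In VAT, *Pde3b* was highest at 281 ± 82.3 TPM (SD, n = 4), followed by *Akt2* at 87.2 ± 22.04, *Insr* at 74.5 ± 10.9, *Irs2* at 69.3 ± 16.4, *Pik3r1* at 60.4 ± 22.9 and *Irs1* at 54.6 ± 15.3 TPM. *Irs3* (33.2 ± 17.5 TPM), *Tbc1d4* (21.5 ± 3.12 TPM) and *Foxo1* (20.9 ± 3.47 TPM) came next, and *Grb14* was lowest at 5.15 ± 0.701 TPM. From *Akt2* to *Foxo1*, each gene's range of TPM overlapped that of its neighbour in this order. The ends were the same in SAT, with *Pde3b* at 159.9 ± 38.5 TPM, *Irs3* at 13.2 ± 2.53 TPM and *Grb14* at 2.59 ± 1.09 TPM. In liver the receptor led with 34.3 ± 3.28 TPM, above *Pde3b* at 27.5 ± 1.80 TPM without overlap, and the range of *Grb14* (13.8 ± 2.83 TPM) overlapped those of *Irs1* (17.2 ± 2.36 TPM) and *Irs2* (13.7 ± 2.73 TPM). *Tbc1d4* was the lowest member tested in liver (1.35 ± 0.151 TPM), and *Irs3* had 0 to 5 counts per liver library and was not tested there.

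In male VAT, the receptor, both main adaptors and *Pde3b* were lower on HFD than on chow in either genotype, and in WT *Pik3r1* and *Akt2* were lower too. Of the 10 members, 6 fell in WT, against 38.9% of all genes called in either direction and 16.9% called lower. In KO, 4 fell and 1 rose, against 32.8% called in either direction and 18.4% called lower. The median log2 fold change of the members was -0.87 in WT and -0.38 in KO, beside 0.03 and -0.13 over all genes tested. A gene is called here when edgeR's quasi-likelihood test gives a false discovery rate (FDR) under 10% over all genes tested. The plot of counts by group shows each library.

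**Figure D1:**
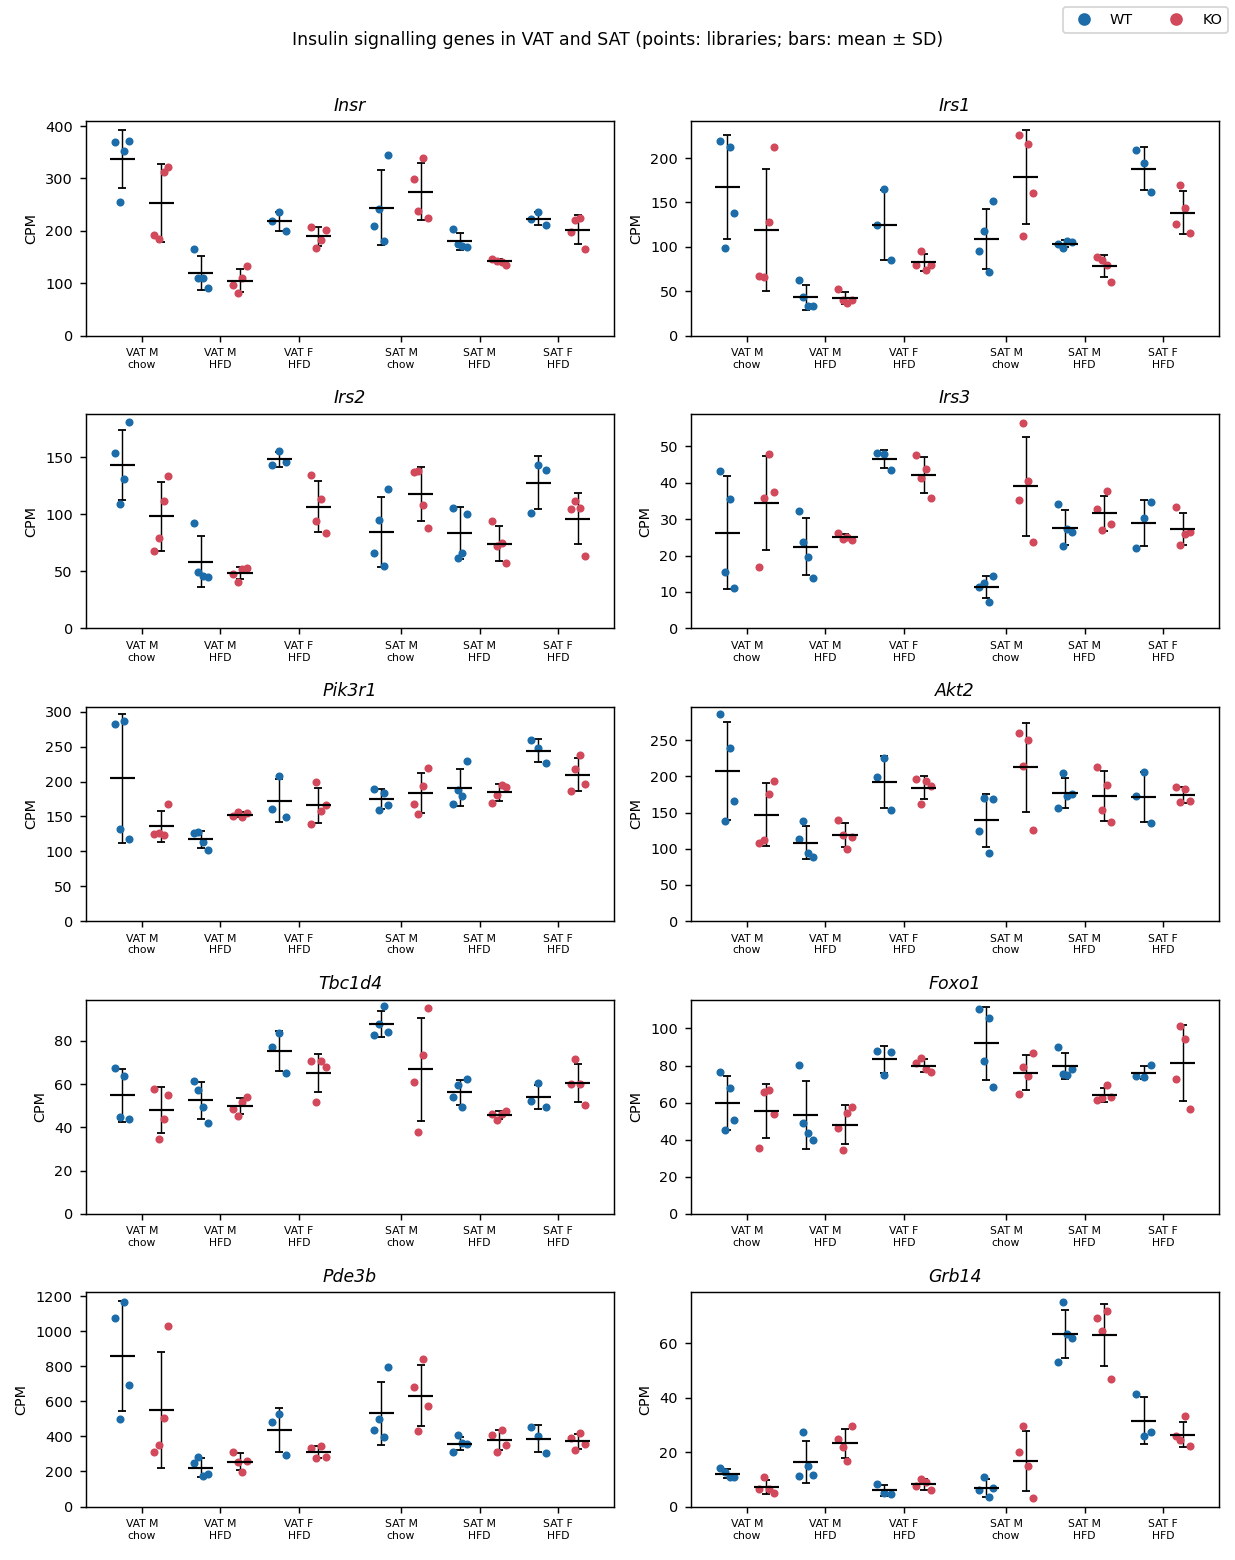
Normalized CPM (linear axis) of the 10 genes in every VAT and SAT library of males (M) and females (F), WT in blue and KO in red, with the mean as a line and the SD as a bar. In male VAT the HFD points of *Insr*, *Irs1*, *Irs2* and *Pde3b* lie below all chow points of the same genotype, and in male SAT the HFD points of *Grb14* lie above them. For *Pde3b* in KO VAT the highest HFD point and the lowest chow point nearly coincide, at 311.6 and 311.8 CPM.

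*Insr* (chr8:3122061-3279617, minus strand, GRCm38) held 370.04, 254, 353 and 372 CPM in the 4 WT libraries on chow and 166, 109.6, 111 and 90.7 CPM in the 4 on HFD. No HFD library reached the lowest chow library, and the HFD level was 0.352 times that on chow (log2 fold change -1.504 ± 0.21 (SE), adjusted p = 7.66e-05). In KO, *Insr* held 193, 184, 313 and 322 CPM on chow and 96.8, 80.5, 109.7 and 132 CPM on HFD, again without overlap (log2 fold change -1.27 ± 0.21 (SE), adjusted p = 0.000503).

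*Irs1* (chr1:82233101-82291416, minus strand) had the largest fall of the adaptors. Its WT libraries held 219, 98.1, 212 and 139 CPM on chow and 62.7, 43.8, 33.4 and 32.9 CPM on HFD, 0.257 times the chow level (log2 fold change -1.96 ± 0.34 (SE), adjusted p = 0.000368). The KO libraries held 67.4, 66.2, 128 and 212 CPM on chow and 52.8, 40.2, 36.5 and 39.8 CPM on HFD (log2 fold change -1.48 ± 0.34 (SE), adjusted p = 0.00463). Replicates 1 and 2 of KO on chow were low among their group, yet above every HFD library.

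*Irs2* (chr8:10984681-11008458, minus strand), the adaptor whose transcription is known to rise in fasting, held 154, 109, 131 and 181 CPM in WT on chow and 91.96, 49.7, 46.2 and 45.3 CPM on HFD (log2 fold change -1.31 ± 0.24 (SE), adjusted p = 0.000503). HFD replicate 1, a library of the other flow cell with 40.1% ribosomal RNA, was the highest of its group. In KO the values were 67.5, 79.5, 112 and 134 CPM and 47.7, 40.9, 51.9 and 52.8 CPM (log2 fold change -1.02 ± 0.24 (SE), adjusted p = 0.00522). *Irs3* (chr5:137643031-137645714, minus strand), an adaptor gene expressed in mouse fat, ranged from 11.2 to 43.1 CPM in WT on chow and from 13.9 to 32.3 CPM on HFD. Its ranges overlapped in both genotypes and it did not pass the test in either (log2 fold change -0.24 ± 0.35 in WT and -0.46 ± 0.34 in KO).

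Below the adaptors, *Pik3r1* (chr13:101680563-101768217, minus strand) and *Akt2* (chr7:27591552-27640826, plus strand) fell in WT and did not pass in KO. *Pik3r1* held 282, 132, 287 and 118 CPM in WT on chow and 126, 128, 113 and 102 CPM on HFD (log2 fold change -0.80 ± 0.23 (SE), adjusted p = 0.0126). Chow replicates 1 and 3 were far above the HFD libraries, while replicates 2 and 4 lay within or near the HFD range. In KO, *Pik3r1* held 125, 126, 124 and 168 CPM on chow and 149.9, 156, 149 and 155 CPM on HFD (log2 fold change 0.17 ± 0.23 (SE), adjusted p = 0.609). *Akt2* held 286, 139, 239.6 and 166 CPM in WT on chow and 113, 138, 93.8 and 88.2 CPM on HFD (log2 fold change -0.94 ± 0.23 (SE), adjusted p = 0.00443), with the lowest chow library just above the highest HFD library. In KO its ranges overlapped (log2 fold change -0.31 ± 0.22 (SE), adjusted p = 0.323). Neither gene passed the test of the difference between genotypes (adjusted p = 0.153 for *Pik3r1* and 0.388 for *Akt2*).

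Of the outputs, *Pde3b* (chr7:114415281-114539251, plus strand) fell with the receptor. It held 1073, 501, 1165 and 693 CPM in WT on chow and 248, 285, 172 and 184 CPM on HFD, 0.259 times the chow level (log2 fold change -1.95 ± 0.34 (SE), adjusted p = 0.000326). In KO it held 312, 351, 505 and 1030.4 CPM on chow and 312, 256, 198 and 262 CPM on HFD (log2 fold change -1.10 ± 0.33 (SE), adjusted p = 0.0226), and this call rested on chow replicate 4, the library labelled KO whose *Fam13a* lay within the WT range, without which the log2 fold change was -0.59 and did not pass. *Tbc1d4* (chr14:101442360-101609191, minus strand) and *Foxo1* (chr3:52268336-52353221, plus strand) had overlapping ranges on both diets, with log2 fold changes of -0.06 ± 0.17 and -0.18 ± 0.23 in WT and 0.06 ± 0.17 and -0.19 ± 0.22 in KO, none of which passed.

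The inhibitor *Grb14* (chr2:64912476-65024987, minus strand) was the one member called higher in male VAT, and it was so in KO. It held 6.37, 11.02, 6.58 and 5.08 CPM in KO on chow and 24.8, 22.01, 16.8 and 29.4 CPM on HFD, 3.18 times the chow level (log2 fold change 1.67 ± 0.30 (SE), adjusted p = 0.000778). In WT it held 14.2, 12.6, 10.9 and 10.8 CPM on chow and 11.3, 27.4, 14.9 and 11.6 CPM on HFD (log2 fold change 0.43 ± 0.29 (SE), adjusted p = 0.268). The difference between genotypes did not pass the test (1.24 ± 0.41, adjusted p = 0.153), though it did without KO chow replicate 2 (adjusted p = 0.068) or without WT HFD replicate 2 (adjusted p = 0.0404).

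**Figure D2:**
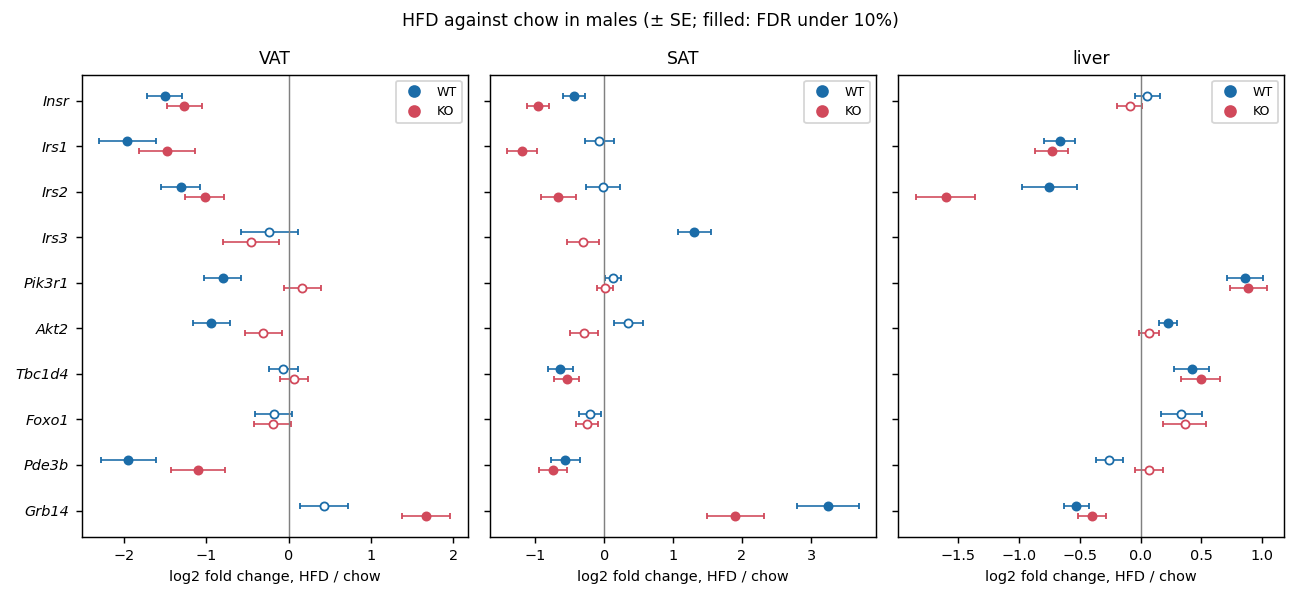
Log2 fold change of HFD against chow in males (x axis, ± SE from edgeR) for each gene in VAT, SAT and liver, WT in blue and KO in red, filled where the FDR is under 10%. In VAT *Insr*, *Irs1*, *Irs2* and *Pde3b* are filled left of 0 in both genotypes, in SAT *Grb14* is filled at 3.24 and 1.90, and in liver *Pik3r1* is filled near 0.86 and 0.88.

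Markers of other cell types moved with diet in male VAT. The 6 macrophage markers, all above 0 in every male VAT library, summed to 1551 to 3664 CPM in WT and 2157 to 3137 CPM in KO on HFD, against 399 to 741 and 360.3 to 1224 CPM on chow. The 7 adipocyte markers, likewise all above 0, summed to 6166 to 12679 and 8398 to 12208 CPM on HFD, against 10015 to 19059 and 7047 to 19584 CPM on chow. In bulk tissue, fewer cells of a type and less RNA per cell cannot be told apart. With the adipocyte marker score in the model, *Insr* (-1.15), *Irs1* (-1.01), *Irs2* (-0.89) and *Pde3b* (-0.93) still fell in WT, with adjusted p between 0.00522 and 0.0468, and *Pik3r1* and *Akt2* no longer passed. In the same fit *Grb14* (0.88, adjusted p = 0.0729) and *Irs3* (0.87, adjusted p = 0.0785) were called higher in WT, and *Pde3b* lost its call in KO (-0.52, adjusted p = 0.118). With the macrophage score, *Insr* (-1.06, adjusted p = 0.0907) was the one member still called in WT and no member was called in KO.

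**Figure D3:**
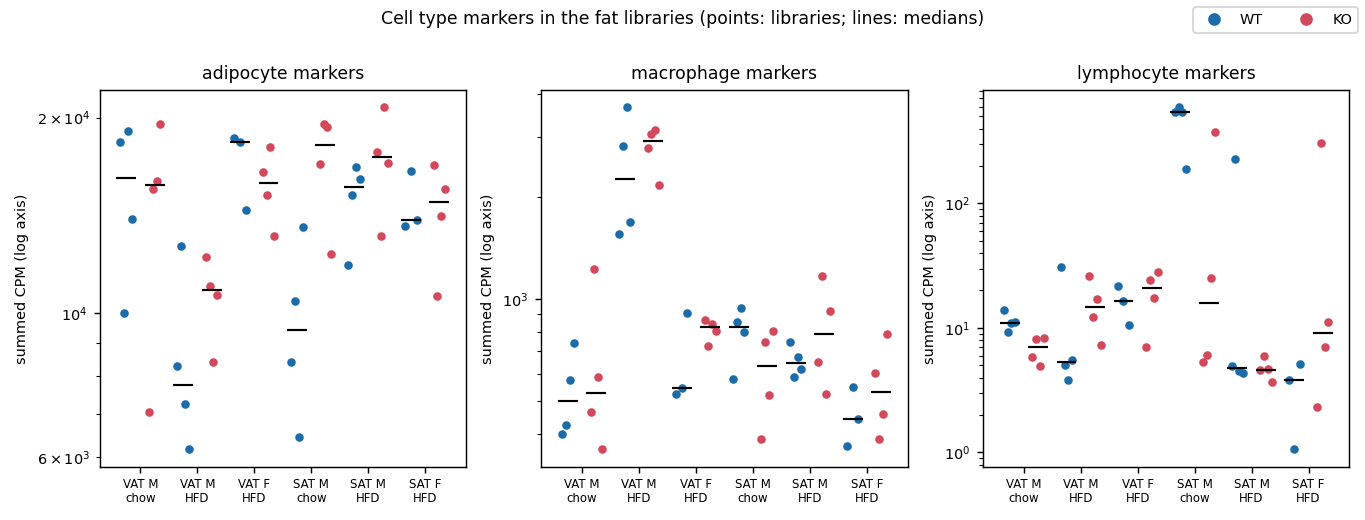
Summed CPM (log axis) of the 7 adipocyte, 6 macrophage and 6 lymphocyte markers in every VAT and SAT library of males (M) and females (F), WT in blue and KO in red, with the group median as a line. Macrophage sums are highest in male VAT on HFD, and lymphocyte sums are 191 CPM or more in all 4 WT SAT libraries of chow males.

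In male SAT on HFD, *Grb14* rose in both genotypes while *Insr*, *Tbc1d4* and *Pde3b* fell in both. Of the 10 members 5 were called in WT (2 higher, 3 lower), against 54.7% of all genes, a share near the background. In KO 6 were called (1 higher, 5 lower), against 26.5% of all genes, of which 12.2% were called lower. The median log2 fold change of the members was -0.05 in WT and -0.43 in KO, beside -0.01 and -0.02 over all genes.

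*Grb14* held 5.98, 10.96, 3.34 and 6.96 CPM in WT SAT on chow and 53.2, 74.99, 63.3 and 61.9 CPM on HFD, a 9.45-fold rise (log2 fold change 3.24 ± 0.45 (SE), adjusted p = 6.32e-05). In KO it held 20.1, 29.4, 15.01 and 3.02 CPM on chow, where replicate 4 was far below the others, and 69.2, 64.3, 71.6 and 46.7 CPM on HFD (log2 fold change 1.90 ± 0.42 (SE), adjusted p = 0.00607). Every HFD library was above every chow library in either genotype, and no comparison of diets gave any member a larger fold change. Female SAT on HFD held 41.5, 25.9 and 27.3 CPM in WT and 25.8, 24.4, 33.1 and 22.3 CPM in KO. Female VAT on HFD held 4.71 to 8.35 CPM in WT and 5.94 to 10.3 CPM in KO, below every library of male VAT on HFD. Females had no chow group, so their response to diet was not measured.

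*Insr* held 209.6, 241, 180.5 and 344 CPM in WT SAT on chow and 204, 175, 172 and 169.6 CPM on HFD (log2 fold change -0.44 ± 0.16 (SE), adjusted p = 0.0335). The ranges overlapped, and without chow replicate 4 the log2 fold change was -0.25 and did not pass. In KO *Insr* held 299.7, 238, 339 and 224 CPM on chow and 146, 143, 141 and 135 CPM on HFD without overlap (log2 fold change -0.96 ± 0.16 (SE), adjusted p = 0.00131). *Irs1* held 95.04, 118, 71.4 and 151 CPM in WT on chow and 103, 98.2, 107 and 106 CPM on HFD, a range within that of the chow libraries (log2 fold change -0.07 ± 0.21 (SE), adjusted p = 0.797). In KO it held 225, 112, 216 and 161 CPM on chow and 87.9, 84.98, 79.2 and 60.7 CPM on HFD, and it fell (log2 fold change -1.19 ± 0.21 (SE), adjusted p = 0.00184). *Irs2* fell in KO (log2 fold change -0.66 ± 0.25 (SE), adjusted p = 0.0718), with overlapping ranges of 88.3 to 138 CPM on chow and 57.02 to 94.2 CPM on HFD, and this call was lost without any 1 of 4 libraries (chow replicate 1 or HFD replicates 2, 3 or 4). In WT it was at -0.02 ± 0.25.

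*Irs3* rose in WT SAT, from 11.3, 12.4, 7.09 and 14.3 CPM on chow to 34.1, 22.6, 27.4 and 26.5 CPM on HFD (log2 fold change 1.31 ± 0.24 (SE), adjusted p = 0.000407). The 4 WT chow libraries held the lowest *Irs3* of all SAT libraries, and KO chow libraries held 35.3, 56.4, 40.4 and 23.8 CPM. HFD had no called effect in KO (log2 fold change -0.31 ± 0.23 (SE), adjusted p = 0.351). *Pik3r1* and *Akt2* did not pass in either genotype, with log2 fold changes of 0.13 ± 0.12 and 0.35 ± 0.21 in WT and 0.01 ± 0.12 and -0.29 ± 0.21 in KO. *Pik3r1* was among the steadiest members here, between 153 and 229 CPM in all 16 male SAT libraries.

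*Tbc1d4*, the brake on glucose transporter vesicles, held 82.6, 87.7, 95.99 and 83.9996 CPM in WT on chow and 53.9, 59.8, 49.4 and 62.2 CPM on HFD without overlap (log2 fold change -0.64 ± 0.18 (SE), adjusted p = 0.00804). In KO it held 60.8, 37.9, 73.3 and 94.98 CPM and 45.98, 43.3, 46.005 and 47.5 CPM (log2 fold change -0.55 ± 0.18 (SE), adjusted p = 0.0426), where chow replicate 2 was below all HFD libraries and the call was lost without chow replicate 4. *Pde3b* held 435, 499, 397 and 795 CPM in WT on chow and 312, 406, 363 and 355 CPM on HFD (log2 fold change -0.56 ± 0.21 (SE), adjusted p = 0.0341), a call lost without chow replicate 4 (log2 fold change -0.33). In KO *Pde3b* fell by 0.74 on the log2 scale (adjusted p = 0.0226). *Foxo1* was at -0.21 ± 0.16 in WT and -0.25 ± 0.16 in KO and did not pass in either.

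Marker sums moved with diet in SAT as well. The 6 lymphocyte markers, all above 0 in these libraries, summed to 191 to 593 CPM in WT on chow and to 4.32 to 227 CPM on HFD, and the 7 adipocyte markers to 6439 to 13562 and 11851 to 16814 CPM. In KO the lymphocyte sums were 5.33 to 376 CPM on chow and 3.65 to 5.94 CPM on HFD, and the adipocyte sums 12319 to 19583 and 13129.8 to 20753 CPM. Ribosomal RNA took 22.6%, 18.3%, 0.0259% and 14.4% of the WT chow libraries. With the adipocyte score in the model, *Grb14* was at 2.12 in WT and 2.19 in KO and still called (adjusted p = 0.0176 and 0.000178), as was *Irs3* in WT (0.62, adjusted p = 0.0847), while *Tbc1d4* in WT was not (-0.26, adjusted p = 0.511). The lymphocyte score ended the call of *Tbc1d4* in WT (-0.31, adjusted p = 0.32) and in KO (-0.38, adjusted p = 0.117). In KO the macrophage score ended those of *Irs2* (-0.48), *Tbc1d4* (-0.44) and *Pde3b* (-0.47), with adjusted p from 0.232 to 0.327, and leaving out the muscle-rich libraries ended that of *Irs2* (-0.59, adjusted p = 0.156).

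Whether HFD acted on the members differently in the depots was tested in 32 male fat libraries, both genotypes averaged. The difference (log2 fold change in VAT minus that in SAT) passed for 8 of 10 members, 7 of them more negative in VAT, against 37.3% of all genes in either direction and 19.3% more negative in VAT. It was -0.67 ± 0.21 for *Insr* (adjusted p = 0.0179), -1.07 ± 0.31 for *Irs1* (adjusted p = 0.0116), -0.80 ± 0.26 for *Irs2* (adjusted p = 0.0223) and -0.85 ± 0.30 for *Pde3b* (adjusted p = 0.0361). *Grb14* had the largest difference (-1.49 ± 0.40, adjusted p = 0.00703), its rise being larger in SAT. *Irs3* (-0.82 ± 0.34, adjusted p = 0.0675) and *Akt2* (-0.63 ± 0.25, adjusted p = 0.0545) passed narrowly. *Tbc1d4* went the other way (0.61 ± 0.19, adjusted p = 0.0166), being lower on HFD in SAT and not in VAT. The marker sums given above moved with diet too. With the adipocyte or the lymphocyte score in the model no member passed, while with the macrophage score 2 did.

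In liver, HFD moved the members in both directions. *Irs1*, *Irs2* and *Grb14* fell and *Pik3r1* and *Tbc1d4* rose in both genotypes, and *Akt2* rose in WT. Of the 9 members tested 6 were called in WT (3 higher, 3 lower), against 30% of all genes, and 5 in KO (2 higher, 3 lower), against 21.6%. The median log2 fold change of the members was 0.05 in WT and 0.07 in KO, beside -0.0013 and -0.0089 over all genes.

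**Figure D4:**
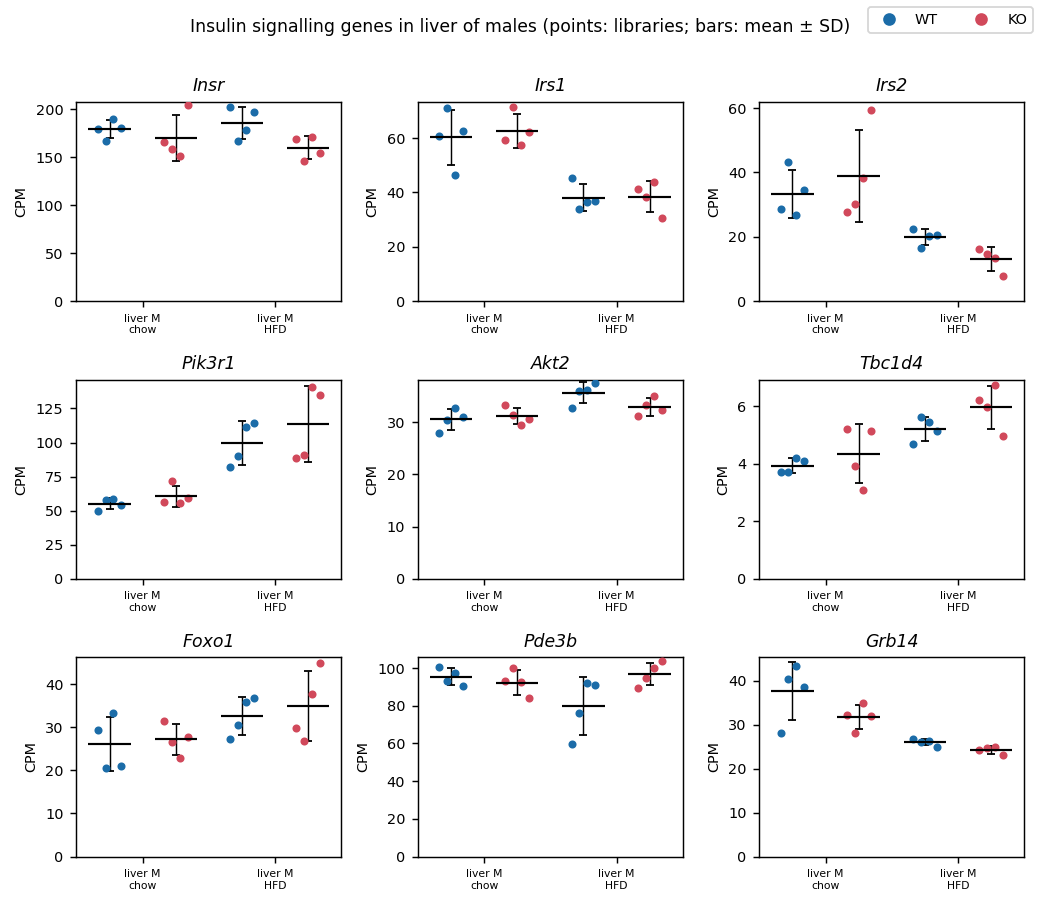
Normalized CPM (linear axis) of the 9 members tested in every male liver library, WT in blue and KO in red, with the mean as a line and the SD as a bar. The HFD points of *Irs1* and *Irs2* lie below, and those of *Pik3r1* above, all chow points of the same genotype.

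*Insr* did not pass in liver, at 179, 167, 189.9 and 181 CPM in WT on chow and 202, 167, 178 and 197 CPM on HFD (log2 fold change 0.05 ± 0.10 (SE), adjusted p = 0.747), and at -0.09 ± 0.10 in KO. *Irs1* held 60.9, 71.2, 46.3 and 62.6 CPM in WT on chow and 45.3, 33.96, 36.4 and 36.9 CPM on HFD (log2 fold change -0.67 ± 0.13 (SE), adjusted p = 0.00122). In KO it held 59.4, 71.3, 57.5 and 62.4 CPM on chow and 41.3, 38.2, 43.8 and 30.7 CPM on HFD (log2 fold change -0.73 ± 0.14 (SE), adjusted p = 0.00128). The ranges did not overlap in either genotype, the closest being WT, with 1 chow library at 46.3 CPM and 1 HFD library at 45.3 CPM.

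*Irs2* held 28.5, 43.3, 26.6 and 34.4 CPM in WT on chow and 22.3, 16.4, 20.2 and 20.6 CPM on HFD (log2 fold change -0.75 ± 0.22 (SE), adjusted p = 0.0211). The KO libraries held 27.8, 30.3, 38.4 and 59.4 CPM on chow and 16.2, 14.6, 13.5 and 7.70 CPM on HFD, 0.329 times the chow level (log2 fold change -1.60 ± 0.25 (SE), adjusted p = 0.000294). The difference between genotypes did not pass over all genes (-0.85 ± 0.33, unadjusted p = 0.018 and adjusted p = 0.72 by edgeR). HFD KO replicate 3, which had 75.4% ribosomal RNA and 20 counts of *Irs2*, lay within its group at 13.5 CPM.

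*Pik3r1* rose in both genotypes, with a difference between them of 0.03 ± 0.21 on the log2 scale. It held 49.7, 57.6, 58.9 and 54.1 CPM in WT on chow and 82.2, 90.3, 112 and 115 CPM on HFD, a 1.81-fold rise (log2 fold change 0.86 ± 0.15 (SE), adjusted p = 0.000475), and in KO 56.1, 71.8, 55.4 and 59.2 CPM and 88.7, 90.97, 141 and 135 CPM (log2 fold change 0.88 ± 0.15 (SE), adjusted p = 0.000695). *Akt2* held 27.9, 30.5, 32.7 and 30.99 CPM in WT on chow and 32.8, 35.96, 36.2 and 37.6 CPM on HFD, a small rise (log2 fold change 0.23 ± 0.08 (SE), adjusted p = 0.0372) whose call was lost without chow replicate 1 or HFD replicate 4. In KO it was at 0.07 ± 0.08. *Tbc1d4* rose from a low level, 3.70 to 4.21 CPM to 4.67 to 5.61 CPM in WT (log2 fold change 0.42 ± 0.15 (SE), adjusted p = 0.044) and from 3.09 to 5.21 CPM to 4.95 to 6.74 CPM in KO (log2 fold change 0.49 ± 0.16 (SE), adjusted p = 0.0474), and lost its call without any 1 of 3 libraries in WT (chow replicates 1 and 2, HFD replicate 2) and of 4 in KO (chow replicates 2 and 3, HFD replicates 1 and 2). *Foxo1* was at 0.33 ± 0.17 in WT and 0.36 ± 0.18 in KO, and *Pde3b* at -0.26 ± 0.11 and 0.07 ± 0.11, and neither passed by edgeR. *Pde3b* in WT (adjusted p = 0.108 by edgeR) was called lower by DESeq2 (adjusted p = 0.097), by limma-voom (adjusted p = 0.0705), with DESeq2's size factors (adjusted p = 0.098) and with a minimum of 10 counts (adjusted p = 0.0461).

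*Grb14* held 28.2, 40.5, 43.4 and 38.5 CPM in WT liver on chow and 26.8, 26.03, 26.3 and 25.01 CPM on HFD (log2 fold change -0.53 ± 0.11 (SE), adjusted p = 0.00164). In KO it held 32.3, 28.1, 34.9 and 31.9 CPM on chow and 24.2, 24.7, 24.9 and 23.01 CPM on HFD (log2 fold change -0.40 ± 0.11 (SE), adjusted p = 0.0221), a call lost when the 3 liver libraries with over 30% ribosomal RNA, all KO, were left out (-0.39, adjusted p = 0.118). The HFD libraries of either genotype lay close together and below all chow libraries. Liver *Grb14* on HFD thus fell while SAT *Grb14* rose, each by its own test. The contrast between liver and fat was not tested.

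Whether the response to diet depended on genotype was tested in each tissue. In VAT no member passed by edgeR, against 2.39% of all genes, and 2 (*Pik3r1* and *Grb14*) had an unadjusted p under 0.05. In liver no member passed, against 0%, and 1 (*Irs2*) had an unadjusted p under 0.05. DESeq2 and limma-voom also called 0 members in both tissues. In SAT *Irs1* (-1.12 ± 0.30, adjusted p = 0.0948) and *Irs3* (-1.61 ± 0.33, adjusted p = 0.0837) passed, both with a more negative response in KO, against 1.77% of all genes called in either direction and 1.45% more negative. Both lay close to the threshold. *Irs1* was lost on leaving out any 1 of 16 of the 23 libraries and *Irs3* of 11. Without chow KO replicate 4, 5 members passed, *Grb14* among them (-1.73, adjusted p = 0.00732). Both *Irs1* and *Irs3* were lost with the adipocyte, macrophage or lymphocyte score in the model.

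**Figure D5:**
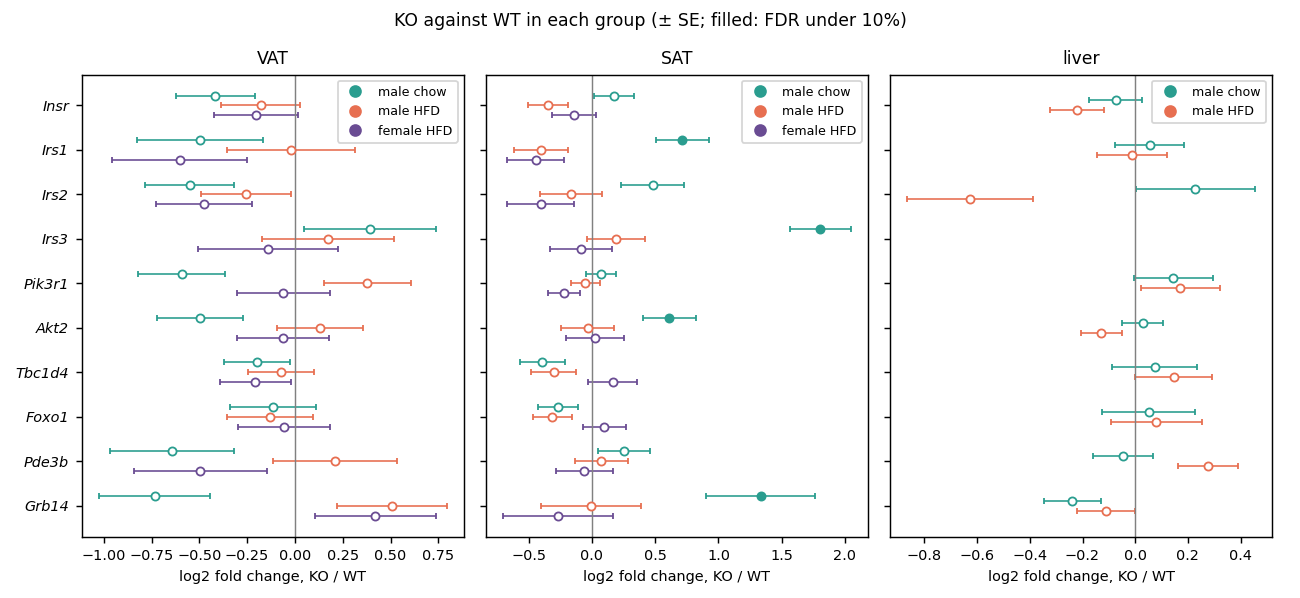
Log2 fold change of KO against WT (x axis, ± SE from edgeR) for each gene in VAT, SAT and liver, with 1 colour for each group of sex and diet, filled where the FDR is under 10%. Filled points are seen in SAT of males on chow alone, for *Irs1*, *Irs3*, *Akt2* and *Grb14*.

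For the KO effect as a whole, with diet and sex as covariates no member was called in SAT (4.33% of all genes), VAT (0.00527%) or liver (0%), nor in male SAT and VAT together with diet and depot as covariates (3.97%). Unadjusted p-values were under 0.05 for 1 member in SAT, 2 in VAT, 1 in liver and 2 in male fat. The largest such effects were those of *Irs3* in SAT (0.64 ± 0.23, adjusted p = 0.139) and in male fat (0.58 ± 0.21, adjusted p = 0.151), followed in VAT by *Irs2* (-0.43 ± 0.13, adjusted p = 0.407). DESeq2 called *Irs3* in SAT and in male fat, and limma-voom called it in male fat, while neither called a member in VAT or liver. No difference in the KO effect between depots passed for any member by edgeR, DESeq2 or limma-voom (0% of all genes and 0 members with an unadjusted p under 0.05).

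Within single groups, 4 members were higher in KO than in WT SAT of males on chow, against 31.3% of all genes called in either direction and 18.5% called higher. *Irs3* was at 35.3, 56.4, 40.4 and 23.8 CPM in KO and 11.3, 12.4, 7.09 and 14.3 CPM in WT, 3.50 times higher without overlap (log2 fold change 1.81 ± 0.24 (SE), adjusted p = 0.00103). *Irs1* was higher too (log2 fold change 0.71 ± 0.21 (SE), adjusted p = 0.0268), though its ranges overlapped, at 112 to 225 CPM in KO and 71.4 to 151 CPM in WT. *Akt2* (log2 fold change 0.61 ± 0.21 (SE), adjusted p = 0.047) and *Grb14* (log2 fold change 1.33 ± 0.43 (SE), adjusted p = 0.038) overlapped between genotypes as well. The call of *Akt2* was lost without any 1 of 4 libraries (KO replicates 1 and 3, WT replicates 1 and 3), and that of *Grb14* without KO replicate 2 or WT replicate 3 and with limma-voom (adjusted p = 0.132). *Insr* (0.17 ± 0.16), *Irs2* (0.48 ± 0.25), *Pik3r1* (0.07 ± 0.12), *Foxo1* (-0.27 ± 0.16), *Tbc1d4* (-0.39 ± 0.18) and *Pde3b* (0.25 ± 0.21) did not pass by edgeR, but *Tbc1d4* was called lower by limma-voom (-0.46, adjusted p = 0.0663) and with a minimum of 10 counts (-0.42, adjusted p = 0.0851). Without WT replicate 3, 2 members passed, and without WT replicate 4, 8 did. These are the WT libraries that also served as the chow group of the HFD comparison in SAT.

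Lymphocyte marker sums were mostly higher in these WT libraries than in KO (191 to 593 against 5.33 to 376 CPM) and adipocyte marker sums mostly lower (6439 to 13562 against 12319 to 19583 CPM). With the adipocyte score in the model no member was called, *Irs3* being at 0.95 (adjusted p = 0.318) and *Akt2* and *Grb14* turning to -0.15 and -0.15. With the lymphocyte score, or without the muscle-rich libraries, *Irs3* alone was called (1.37 and 1.87). When the model held these 8 libraries alone no member passed, with *Irs3* at 1.80 (adjusted p = 0.146).

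The other 7 groups gave 0 members by edgeR, DESeq2 and limma-voom. The shares of all genes called were 0% in SAT of males on HFD, 0.0109% in SAT of females, 0.29% and 0% in VAT of males on chow and HFD, 0.00527% in VAT of females, and 0.00691% and 0.0622% in liver on chow and HFD. Unadjusted p-values under 0.05 were found for 4 members in VAT of males on chow (*Irs2*, *Pik3r1*, *Akt2* and *Grb14*, all lower in KO, with log2 fold changes from -0.73 to -0.50), 1 in SAT of males on HFD (*Insr*), 1 in liver on chow (*Grb14*), 3 in liver on HFD (*Insr*, *Irs2* and *Pde3b*) and 0 in the remaining groups. In that VAT group, *Pde3b* was at -0.64 ± 0.32 and passed without KO replicate 4 (-1.14, adjusted p = 0.0615). That library, the one labelled KO with *Fam13a* at a WT level, held 1030.4 CPM of *Pde3b*, against 312 to 505 CPM in the other 3 KO libraries.

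Levels in VAT of females on HFD are given beside those of males on HFD without a test, since sex was not a comparison of the design. *Insr* held 219, 235 and 199.8 CPM in female WT and 206, 166, 182 and 201 CPM in libraries labelled KO, all above the libraries of males on HFD (80.5 to 165.6 CPM), the lowest of them only just, at 166.3 CPM. *Irs1* ranged from 85.4 to 165 CPM in WT and 74.04 to 95.4 CPM in those labelled KO, and *Irs2* from 143 to 156 and 83.7 to 135 CPM. Every female library was above every male one for *Irs1* (32.9 to 62.7 CPM in males), and for *Irs2* they overlapped through HFD WT male replicate 1 at 91.96 CPM. Female *Irs2* in VAT was higher in each WT library than in any labelled KO, yet the difference did not pass (-0.48 ± 0.25, adjusted p = 1). In female SAT, *Irs1* was at -0.44 ± 0.23 and *Irs2* at -0.41 ± 0.27, with overlapping ranges. Macrophage markers summed to 523 to 909.7 and 726 to 864 CPM in female VAT, below the sums of male VAT on HFD.

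A list of 77 other genes of the pathway gives the surroundings of these members. In male VAT on HFD, 11 rose and 23 fell of 73 tested in WT (46.6% called, median -0.16), and 12 rose and 16 fell in KO (38.4%, median -0.18), beside the shares and medians of all genes given above. Of the 6 genes of lipolysis control, 4 fell in WT and 2 in KO, among them *Adrb3*, the beta-adrenergic receptor of adipocytes (-3.39 in WT and -3.32 in KO), and *Pnpla2*, the first lipase of lipolysis (-1.63 and -0.91). *Lipe*, the hormone-sensitive lipase, fell in WT (-1.13). Among other inhibitors, *Grb10*, the close relative of *Grb14*, fell (-1.67 in WT and -0.99 in KO) and the phosphatase gene *Ptpn1* rose (0.74 and 0.61). *Pik3cd*, the catalytic subunit known from leukocytes, rose (1.56 and 1.30) together with the macrophage marker sums. *Pck1*, a FoxO target that makes glycerol phosphate in fat, fell (-2.68 and -1.57).

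In male SAT on HFD, 24 rose and 19 fell of 73 in WT (58.9%), near the 54.7% of all genes. In KO 3 rose and 19 fell (30.1%), against 26.5% of all genes called in either direction and 12.2% called lower. *Slc2a4*, the insulin-responsive glucose transporter, rose in WT (0.73) and fell in KO (-0.65), a difference that passed the test between genotypes (-1.38, adjusted p = 0.0865). That difference lay close to the threshold. The other tests, marker scores and omissions of libraries were run for the members alone. *Slc2a4* was also higher in KO than in WT on chow (1.12), by a test that shares its WT chow libraries with the rise and the difference. On chow, 30 of the 73 were higher and 9 lower in KO (53.4%), against 31.3% of all genes called in either direction and 18.5% called higher. *Adrb3* fell in both genotypes (-1.73 and -2.64) and the glycogen synthase gene *Gys2* rose in both (2.47 and 1.40).

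In liver, 18 of 72 rose and 13 fell in WT (43.1%), against 30% of all genes. In KO 12 rose and 10 fell (30.6%), against 21.6% of all genes. Of the 9 other FoxO factors and FoxO targets tested, 2 rose and 6 fell in WT (88.9% called, median -1.01). In KO 1 rose and 5 fell (66.7%, median -0.44). The medians over all genes were -0.0013 in WT and -0.0089 in KO. *Foxo1* itself did not pass. *Igfbp1* fell most (-3.17 in WT and -3.27 in KO), beside the gluconeogenic genes *Pck1* (-1.55 and -1.12) and *G6pc* (-1.26 and -1.85). These are genes that FoxO factors activate and insulin represses, and *Irs2*, which fell with them, is known as another. Whether insulin or FoxO factors caused these falls was not tested. Of the 8 listed genes of glycogen and lipid synthesis, 3 rose and 2 fell in WT, and 3 rose and 0 fell in KO. The insulin-induced gene *Srebf1*, the factor that turns on fatty acid synthesis (2.37 and 2.47), rose in both genotypes. *Gys2* fell in WT (-0.54).

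Across the 16 group means, each centred on the mean of its tissue, the members' log2 levels were most alike for *Irs1* and *Irs2* (Pearson r = 0.90), *Insr* and *Pde3b* (0.89), *Foxo1* and *Tbc1d4* (0.88) and *Insr* and *Irs1* (0.87). *Grb14* was least like the others, with r from -0.58 (*Tbc1d4*) to 0.041 (*Pik3r1*). These points share libraries, tissue makeup and depth, and the values are descriptive. Without centring, the genes most like each member among 13788 tested in all tissues were *2510002D24Rik*, *Zfp2* and *Ankzf1* for *Insr* (0.94 to 0.95), *Eml5*, *Sec31b* and *Ppnr* for *Irs1* (0.91 to 0.93), and *Ppp1r9a*, *Kctd15* and *Amigo1* for *Irs2* (0.96). For *Pik3r1* they were *D830050J10Rik* and the clock gene *Per1* (both 0.96), for *Akt2* *Dlc1*, *Utrn* and *Nedd4* (0.995), and for *Foxo1* *Tnrc6b*, *Colgalt2* and *Trim56* (0.98 to 0.99). *Tbc1d4* was nearest to *Pitpnm1*, *Dgkd* and *Cnn2* (0.994 to 0.995), *Pde3b* to *Mapk1ip1*, *Lrrc58* and *Uri1* (0.98 to 0.99), and *Grb14* to *Slc35g1*, *Bmp1* and *Dact2* at no more than 0.79.

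The exons of *Irs1*, *Irs2* and *Foxo1* overlap genes on the opposite strand, which held at most 9 (*Gm9747*), 24 (*9530052E02Rik*) and 2 (*Gm20402*) counts in any library, up to 1.94% of the counts of *Irs2*.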

How the data were processed

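RNA of VAT, SAT and liver was sequenced in 62 libraries. The deposited values are raw counts per gene, which the authors made by aligning reads to mm10 (GRCm38) with STAR (2.5.3a in the submitters' processing notes) and its gene counting. Which strand column was kept is not given in the sources used here. All count columns matched a sample.

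Genes were tested in R 4.3.3 with the quasi-likelihood test of edgeR 4.0.16 (TMM scaling, filterByExpr, Benjamini-Hochberg adjustment, FDR 10%) on all libraries of a tissue, or of both depots. The authors' further covariates (RNA integrity, days to extraction, hidden factors) were not used. CPM were TMM-scaled within a tissue. TPM used merged exon lengths without the ribosomal RNA gene. The SE is the log2 fold change divided by the root of F. The fits were also run on simulated counts with the same spread setting for every gene. That run does not copy the mixed makeup of these libraries and is not used as support for any call.

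All 10 members are named, with at most 4 called genes of smallest p from each other list in a comparison, *Fam13a* as a check, and the 3 genes most like each member. Of the genes these rules name, 2 are not reported here. The members and lists were chosen with earlier results of these data known. Alternatives were DESeq2 1.42.0 (test and size factors), limma-voom (limma 3.58.1), other filters, FDR 5%, leaving out libraries, and an adipocyte score as a covariate. The macrophage and lymphocyte scores and the removal of libraries rich in epididymis, muscle (over 1000 CPM) or ribosomal RNA (over 30%) were chosen after seeing the data.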

Additional observations from a re-analysis of the deposited data

Results flagged for a closer look

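In 6 of 136 sets of 4 libraries, 1 library stood apart from the other 3 by Dixon's test, where chance gives about 1 in 20. *Insr* was at 204 CPM in SAT of HFD WT male replicate 1 (169.6 to 175 CPM in the others) and at 254 CPM in VAT of chow WT male replicate 2 (353 to 372 CPM), a library with epididymis markers. *Irs2* was at 63.6 CPM in SAT of female replicate 4 labelled KO (104 to 111 CPM) and at 92.0 CPM in VAT of HFD WT male replicate 1 (45.3 to 49.7 CPM). *Pik3r1* was at 168 CPM in VAT of chow KO male replicate 4 (124 to 126 CPM). *Tbc1d4* was at 51.9 CPM in VAT of female replicate 2 labelled KO (67.9 to 70.4 CPM).

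The response to HFD differed between genotypes in SAT for *Irs1* (-1.12) and *Irs3* (-1.61), by the interaction term of edgeR on the log2 scale. The response differed between depots (VAT minus SAT) for *Insr* (-0.67), *Irs1* (-1.07), *Irs2* (-0.80), *Irs3* (-0.82), *Akt2* (-0.63), *Tbc1d4* (0.61), *Grb14* (-1.49) and *Pde3b* (-0.85). None of these depot differences passed with the adipocyte or the lymphocyte score in the model.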

How the results depend on the processing

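All 47 called log2 fold changes of members kept direction and call under DESeq2's size factors, the DESeq2 test, a minimum of 10 counts in every library and without the ribosomal RNA gene. With no low-count filter and with limma-voom 3 lost their call, and 5 did at FDR 5%. No paired analysis was possible because the labels give no replicate numbers and do not link tissues of a mouse.

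Marker scores changed the most, but in male VAT the macrophage sums did not overlap between diets. Calls lost there with that score do not tell diet and macrophage content apart. With the adipocyte score 18 of 36 fat results kept their call, 13 lost it and 5 turned. With the macrophage score 15 kept it, 17 lost it and 4 turned, and with the lymphocyte score 21 kept it and 15 lost it. The adipocyte score turned the depot differences of *Irs3* (0.36), *Akt2* (0.24) and *Pde3b* (0.0896) and the KO effects in SAT of chow males of *Akt2* (-0.15) and *Grb14* (-0.15). The macrophage score turned HFD in VAT of KO for *Irs1* (0.0768) and *Pde3b* (0.12) and the depot differences of *Akt2* (0.0436) and *Pde3b* (0.0881). The cause was not tested.

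Members called with the macrophage score were 1 in place of 6 for HFD in VAT of WT, 0 in place of 5 in VAT of KO, 3 in place of 6 in SAT of KO, and 2 in place of 8 for the depot difference, which had 0 with the adipocyte or lymphocyte score. The diet by genotype test in SAT (2 members) gave 1 with limma-voom and 0 with each of the 3 scores, at FDR 5%, and when libraries from the second flow cell, or those rich in muscle, were left out. The KO effect in SAT (0) gave 1 with DESeq2 or the macrophage score and 2 in males alone (*Irs3* 0.97, *Foxo1* -0.30). In male fat (0) it gave 1, *Irs3* higher, with DESeq2, limma-voom or the macrophage score, and 1, *Insr* lower (-0.34), with the adipocyte score. In SAT of chow males (4) it gave 0 with the adipocyte score or with those 8 libraries alone, and 1 with the lymphocyte score or without muscle-rich libraries.

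Leaving out 1 library at a time, members called ranged from 6 to 6 for HFD in VAT of WT, 4 to 5 in VAT of KO, 4 to 5 in SAT of WT, 5 to 6 in SAT of KO, 4 to 7 in liver of WT and 4 to 5 in liver of KO. The diet by genotype test ranged from 0 to 1 in VAT, 0 to 5 in SAT (5 without chow KO replicate 4) and 0 to 0 in liver, and the depot difference from 6 to 9. The KO effect ranged from 0 to 1 in SAT (*Irs3* 0.70 without female replicate 2 labelled KO), in male fat (*Irs3* 0.71 without VAT chow WT replicate 1) and in VAT of chow males, from 2 (without WT replicate 3) to 8 (without WT replicate 4) in SAT of chow males, and 0 to 0 elsewhere. Libraries with 4959783 counts at the least limit the low genes, such as *Irs3* in liver.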
